A study of Rattus norvegicus with 10 samples.

Results

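In 72 of the 32402 genes counted in the rat supraoptic nucleus (SON), the level was at least 1.3 times as high in the Creb3l1 knockdown SON as in the control SON of the same animal, in each of 5 animals. The genes were chosen by that rule. Counts were scaled to CPM (the count per 1000000 counts of the SON's total), the knockdown mean had to be 1 CPM or more, a level that 14769 genes reached, and the ratio had to be 1.3 or more in all 5 pairs. Of the 77 genes that passed, 5 were left out by name (Klhl42, Slc27a4, Rab15, Scn3b and Myoc), the first 4 because they belong to families that the rule sets aside, such as solute carriers, Rab proteins and ion channels, and Myoc because the rule sets it aside by its own name. The mirrored rule, a ratio as low in all 5 pairs at a control mean of 1 CPM or more, held for 259 genes. None was left out by name there, so its counterpart is the 77. The median ratio over all genes was 0.935 to 0.985 across the pairs, and nothing is read from the difference in number. The members were thus selected on the knockdown contrast, and their ratios and fold changes are given as a description.

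Each of 5 male Sprague-Dawley rats gave 1 control and 1 knockdown SON, 10 SONs in all, taken 3 weeks after viral injection. The control SON received an adeno-associated virus with a non-targeting short hairpin RNA (shRNA) and the knockdown SON a virus with a Creb3l1 shRNA, and both groups thus carried a virus. The plasmid behind both viruses also carries a GFP cassette. The left SON always served as control and the right SON as knockdown, so that side and treatment cannot be told apart. Tissue came from 1 mm punches, which hold glia, vessels and neighbouring neurones as well as magnocellular neurones, and in such bulk tissue fewer cells of a type and less RNA per cell cannot be told apart.

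The SON is a hypothalamic nucleus of large neurosecretory cells, the magnocellular neurones, which make vasopressin or oxytocin and release them from their axon endings in the posterior pituitary. Creb3l1 is a transcription factor of the CREB and ATF family that is held in the membrane of the endoplasmic reticulum (ER). After transport to the Golgi it is cut by proteases, and its free N-terminal part enters the nucleus and acts on genes of the secretory pathway.

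Creb3l1 (ENSRNOG00000005413) itself had 20.2, 26.8, 31.1, 36 and 23.8 CPM in the control SONs of animals 1 to 5 and 6.92, 13.3, 8.54, 15.9 and 13.9 CPM in their knockdown SONs. The groups did not overlap, and the knockdown SON held between 0.275 and 0.582 of the level of its own control. The control SONs had a mean of 27.6 ± 6.17 CPM and the knockdown SONs of 11.7 ± 3.8 CPM (SD, n = 5 each). The log2 difference was -1.17 ± 0.24 (standard error), with a Benjamini-Hochberg adjusted p = 0.0173 in the quasi-likelihood test of edgeR. When the animal entered the model as a replicate block, its adjusted p was 0.0586. Permuting the SONs (exact, two-sided) gave p = 0.00794, the smallest that 5 against 5 allow. This permutation does not keep the SONs of 1 animal together, and exchanging SONs only within the 5 animals cannot go below p = 0.0625. Total counts were between 29020948 and 34382889 per SON.

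The sequences that the contrast did not use are shown first. For 46 of the 72 members a promoter of a coding gene was found in RefSeq (assembly GRCr8), running from 250 bases before the start to 50 bases after it, with 1 promoter per gene at the start farthest upstream. Short runs of letters were searched on both strands of these 300 bases. The E-box CACGTG, the GC box CCGCCCC, the ETS run CCGGAAGT and the run TACATTCCC, for which no known factor was matched, are cores of motifs that the study reported in Creb3l1-bound DNA. The study spells the last of these motifs with 1 more A in its reporter construct, and ACAATTCCC, from that spelling, was searched as well. ACAATTCCC, TGACGTGG, the core of the unfolded protein response element, and TGACGTCA, the cAMP response element, were added after the data were seen. None of the runs contains another, although TGACGTGG and TGACGTCA share their first letters.

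The E-box CACGTG, the centre of the motif known for Creb3l1, was found in 3 of the 46 member promoters (6.52%), those of Naa15, Mul1 and Tmem132e, against 7.28% of the 19005 coding promoters. TACATTCCC was found in 2 (4.35%), those of Atf5 and Spred3, against 0.232% of coding promoters, which is 44 promoters in all, whereas ACAATTCCC was found in 1 (2.17%), that of Rgag1, against 0.626%, so the share and the members depend on the spelling. The GC box letters CCGCCCC were in 17 (37.0%, against 27.9% of coding promoters), and the ETS letters CCGGAAGT were in 4 (8.70%, against 4.98%), those of Atmin, Cox20, Dda1 and Uhmk1. TGACGTGG was in none, against 0.637%, and TGACGTCA was in those of Dnajc27 and Nacad (4.35%, against 2.23%). The GC content of the member promoters had a median of 58.2%, from 38.0% to 78.7%, and that of coding promoters 55.3%. These shares are descriptions of letters, and a match is not a bound site. The bases before the start are printed for the 5 members with CACGTG or TACATTCCC and for RGD1305455, the member that stayed past the threshold once a term for the animal was added. Each run reads 5′ to 3′ on the strand of the gene, and capitals mark the matched letters.
Naa15 promoter, GRCr8 chr2:137608633-137608882, plus strand: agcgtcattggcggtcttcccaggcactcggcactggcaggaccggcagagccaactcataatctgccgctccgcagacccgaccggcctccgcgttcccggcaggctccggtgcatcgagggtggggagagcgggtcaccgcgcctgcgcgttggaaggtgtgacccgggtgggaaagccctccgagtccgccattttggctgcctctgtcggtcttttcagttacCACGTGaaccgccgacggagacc
Mul1 promoter, GRCr8 chr5:155935862-155936111, plus strand: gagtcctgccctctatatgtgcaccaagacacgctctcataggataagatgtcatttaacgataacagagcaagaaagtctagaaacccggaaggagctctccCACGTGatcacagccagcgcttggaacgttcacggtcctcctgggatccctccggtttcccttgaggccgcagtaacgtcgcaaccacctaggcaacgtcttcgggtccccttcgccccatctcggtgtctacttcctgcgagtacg
Tmem132e promoter, GRCr8 chr10:67828225-67828474, plus strand: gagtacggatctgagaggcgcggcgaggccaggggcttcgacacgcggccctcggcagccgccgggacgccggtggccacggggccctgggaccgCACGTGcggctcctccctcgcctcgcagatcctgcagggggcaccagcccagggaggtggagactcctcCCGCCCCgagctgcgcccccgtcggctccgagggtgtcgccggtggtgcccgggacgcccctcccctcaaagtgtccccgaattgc
Atf5 promoter, GRCr8 chr1:104434796-104435045, minus strand: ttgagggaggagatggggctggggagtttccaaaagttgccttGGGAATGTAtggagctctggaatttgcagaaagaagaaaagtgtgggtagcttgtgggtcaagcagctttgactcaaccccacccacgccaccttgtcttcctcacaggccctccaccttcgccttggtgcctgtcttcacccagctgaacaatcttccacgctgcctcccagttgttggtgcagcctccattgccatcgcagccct
Spred3 promoter, GRCr8 chr1:93597243-93597492, minus strand: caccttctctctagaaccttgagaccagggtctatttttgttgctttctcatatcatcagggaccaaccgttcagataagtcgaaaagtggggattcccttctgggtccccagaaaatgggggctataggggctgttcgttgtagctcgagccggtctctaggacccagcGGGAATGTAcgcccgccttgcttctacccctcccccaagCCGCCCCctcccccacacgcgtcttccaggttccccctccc
RGD1305455 promoter, GRCr8 chr12:22380652-22380901, minus strand: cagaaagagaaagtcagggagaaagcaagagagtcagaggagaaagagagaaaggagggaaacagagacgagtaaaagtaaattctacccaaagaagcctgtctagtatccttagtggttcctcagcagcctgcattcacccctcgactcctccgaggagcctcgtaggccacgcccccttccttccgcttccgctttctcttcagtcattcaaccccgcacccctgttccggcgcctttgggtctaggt

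In Naa15 the CACGTG started at position -23, counted back from the start, in Mul1 at -147 and in Tmem132e at -155. In Atf5 and Spred3 the letters stand as GGGAATGTA, the other strand of TACATTCCC, from positions -207 and -80. The promoter of RGD1305455 held none of the 7 runs in the bases shown. The counted gene annotation and the RefSeq promoters come from different assemblies, and the start used in these neurones was not measured. A pair of Ensembl identifiers carry the name Atmin, and its promoter was matched by that name. The study lists 210 genes as both bound by Creb3l1 and changed in these SONs. Of the 69 members with a symbol, 2 were among them, Dda1 and Naa15. The 210 stand beside 16286 genes tested here. The list requires a change in these SONs, as did the choice of members, so nothing is read from the 2. That list was drawn up on the same SONs.

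Of the 72 members, 69 had a symbol in the study's table, and 5 are given here by their Ensembl identifier, the 3 without a symbol and 2 whose symbol is a sequence record. The median log2 fold change of the members was 0.91, from 0.53 to 2.33, beside a median of 0.04 over all 16286 genes tested. Of the members, 60 were past the threshold (0.05 for the adjusted p) in the quasi-likelihood test of edgeR, where 3.36% of all genes tested were past it and higher in knockdown. The members were chosen on this contrast, so nothing is read from that count. With the animal as a block, 1 member was past the threshold, beside 0.0123% of all genes, and with DESeq2 70 members, beside 4.94% of the 18574 genes with an adjusted p in that fit. In 58 members every knockdown SON was above every control SON, beside 2.72% of all genes, and in the other 14 the groups overlapped although each pair went the same way. Control means ran from 0.273 to 164 CPM, and were under 1 CPM in 11 members, between 1 and 10 CPM in 24 and 10 CPM or more in 37.

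**Figure D1:**
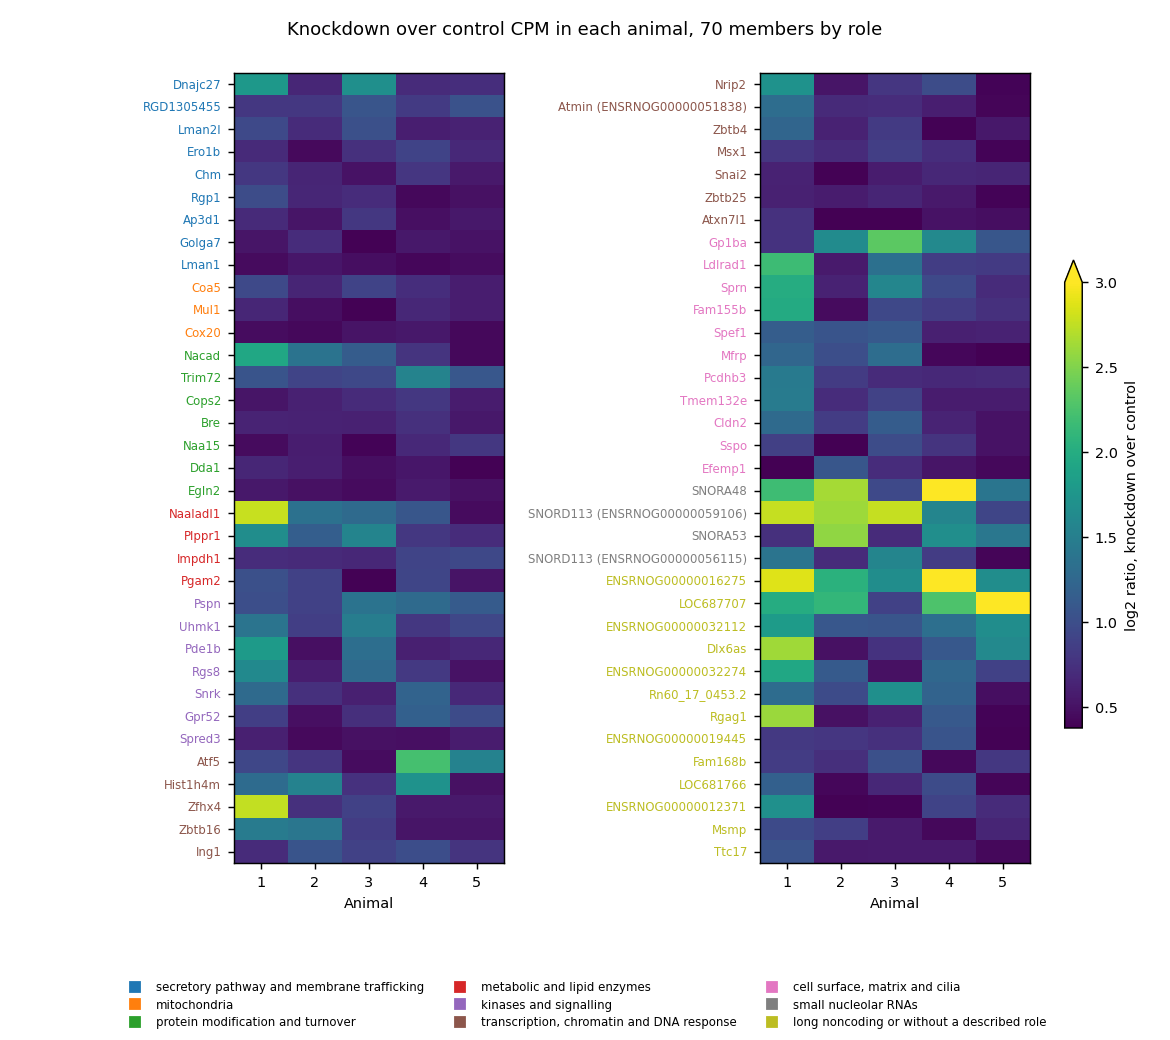
Heat map of the log2 ratio of knockdown over control CPM in each animal (columns) for 70 of the 72 members (rows, names coloured by role and ordered by fold change within a role). The colour scale starts at the ratio of 1.3 that the rule set and is capped at a log2 ratio of 3. Genes such as Lman1, Cops2 and Coa5 are dark and even across animals, Zfhx4 and Naaladl1 are brightest in animal 1, and SNORA48 and SNORD113 (ENSRNOG00000059106) are bright in several animals.

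Of the members, 9 act in the secretory pathway and in membrane trafficking, the group with which Creb3l1 is usually linked. RGD1305455, named Trappc14 in RefSeq, codes for a subunit of a TRAPP complex, which tethers vesicles at the Golgi. It had 32.5, 31.5, 28.4, 31.2 and 25.9 CPM in the control SONs of animals 1 to 5 and 56.7, 55.0, 59.6, 55.1 and 53.4 CPM in the knockdown SONs. The groups were far apart and each was tight, with means of 29.9 ± 2.69 (SD, n = 5) and 56.0 ± 2.36 CPM. The pair ratios lay between 1.74 and 2.10, and the log2 fold change was 0.97 (standard error 0.08, edgeR adjusted p = 0.00104, and 0.0415 with the animal as a block).

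Ap3d1, the delta subunit of the AP-3 adaptor that sorts cargo to lysosome-related organelles and secretory granules, was the member with the highest control mean. It had 156, 176, 154, 172 and 164 CPM in the control SONs and 252, 254, 268, 241 and 240.0 CPM in the knockdown SONs, without overlap. Lman2l and Lman1 code for L-type lectins, which bind the sugars of glycoproteins in the early secretory pathway, Lman1 being the cargo receptor also called ERGIC-53. Lman2l had 26.6, 29.4, 24.7, 31.2 and 30.7 CPM in control and 51.5, 47.8, 50.0, 47.4 and 47.7 CPM in knockdown SONs. Lman1 had 29.4, 26.6, 29.2, 30.3 and 30.4 CPM in control and 40.2, 38.7, 40.5, 40.7 and 42.1 CPM in knockdown SONs. With a log2 fold change of 0.53 it was the lowest of the 72 members, and its pair ratios were among the most even, from 1.34 to 1.45.

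Ero1b, the ER oxidase that supplies disulphide bonds to folding proteins, had 22.4 ± 1.08 (SD, n = 5) CPM in control and 36.4 ± 3.77 CPM in knockdown SONs. Golga7, a partner of a palmitoyltransferase at the Golgi, had 108, 94.0, 97.7, 99.5 and 102 CPM in control and 155, 153, 128, 146 and 144 CPM in knockdown SONs, again without overlap. Chm, the Rab escort protein that presents Rab proteins for prenylation, and Rgp1, part of the exchange factor for a Golgi Rab, had pair ratios from 1.42 to 1.75 and from 1.35 to 1.98. Dnajc27, a small GTPase with a J domain, was the uneven one of the group. It had 59.5, 115, 64.9, 99.2 and 87.1 CPM in control SONs and 204, 182, 208, 161 and 144 CPM in knockdown SONs, with ratios of 3.42 and 3.20 in animals 1 and 3 and at most 1.65 in the others. All 9 genes of the group were past the threshold in edgeR's test and had groups that did not overlap, and their median log2 fold change was 0.73. Over all genes tested, 3.36% were past it and higher, and 2.72% had every knockdown SON above every control SON. The genes were chosen on this contrast, so such counts are not read as a trait of a role.

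Partners of members were taken from lists of whole complexes or gene families, but under 50% of each list could be named. The named genes were those with the smallest adjusted p in the study's table, so the counts lean towards genes that changed. The lists include CK2 and PP2A subunits, with no member among them, and the RGS and the ATF and CREB families. Across the 8 lists with an identified gene that was not a member, 19 such genes were found, Creb3l1 itself not counted. Of these, 12 were higher and 2 lower past the threshold in edgeR's test, 5 were neither, and none passed in the blocked fit, where the adjusted p ran from 0.0706 to 0.252. In the list of AP-3 and AP-4 adaptors (5 of 11 genes identified), Ap3m1 was higher with a log2 fold change of 0.50 (adjusted p = 0.0132), Ap4e1 was higher (0.59, adjusted p = 0.0046) and Ap4m1 lower (-0.31, adjusted p = 0.03). Ap3s2 had a log2 fold change of -0.37 and did not pass (adjusted p = 0.071). In the TRAPP list (3 of 14) Trappc6b was higher (0.58, adjusted p = 0.00476), Trappc5 was lower (-0.31, adjusted p = 0.0409) and Trappc3 did not pass (-0.24, adjusted p = 0.0768). Both identified L-type lectins (2 of 5) were members. Of the ER oxidoreductases and signal recognition particle (3 of 15), Srp68 was higher (0.51, adjusted p = 0.00475) and Srp54a did not pass (-0.22, adjusted p = 0.0524).

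**Figure D2:**
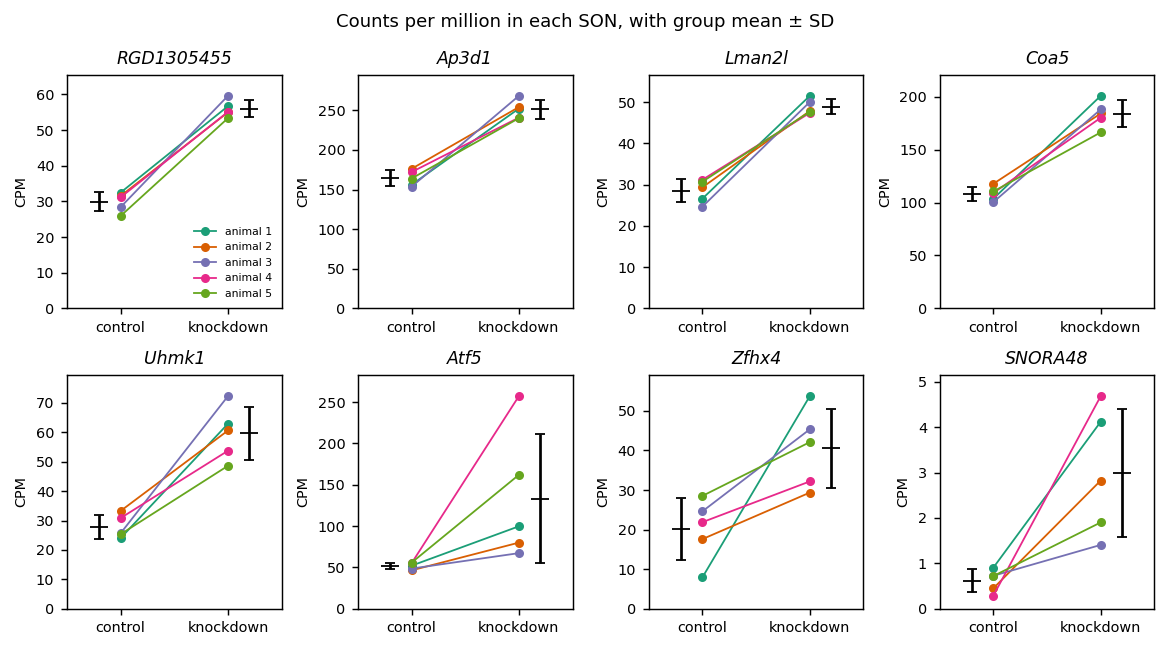
CPM of 8 members in the control and knockdown SON of each animal, joined by a line per animal, with the group mean ± SD (n = 5) in black beside the points. RGD1305455, Ap3d1, Lman2l and Coa5 show 5 near-parallel lines, Atf5 and SNORA48 fan out in the knockdown SONs, and Zfhx4 starts low in the control SON of animal 1.

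A further 3 members are mitochondrial. Coa5 and Cox20 help to assemble cytochrome c oxidase, the last complex of the respiratory chain, and Mul1 is a ubiquitin ligase of the outer membrane. Coa5 had 104, 118, 100.4, 109 and 110.4 CPM in control and 201, 184, 188, 180.0 and 166 CPM in knockdown SONs. The lowest knockdown value was well above the highest control value, and the log2 fold change was 0.83 (standard error 0.08). Cox20 had 34.5 ± 2.06 (SD, n = 5) CPM in control and 48.1 ± 2.71 CPM in knockdown SONs, and Mul1 24.7 ± 0.807 and 36.5 ± 3.07 CPM. In the list of cytochrome c oxidase assembly factors, 4 of 20 genes were identified. The 2 that were not members, Cox10 and Cox19, were higher too (log2 fold changes of 0.49 and 0.53, edgeR adjusted p = 0.00605 and 0.0109), with adjusted p = 0.0919 and 0.0721 once the animal was a block.

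Another 7 members act in protein modification and turnover. Cops2, a subunit of the COP9 signalosome that takes Nedd8 off cullin ligases, had 100.0, 92.4, 85.1, 85.4 and 90.9 CPM in control and 144, 141, 139, 149 and 136 CPM in knockdown SONs. Egln2, a prolyl hydroxylase of hypoxia-inducible factor, had 65.5, 72.4, 64.9, 67.6 and 65.1 CPM in control and 95.9, 102, 89.0, 100.1 and 91.4 CPM in knockdown SONs. Naa15, the anchoring subunit of the N-terminal acetyltransferase NatA, had 86.5, 71.3, 76.4, 80.4 and 67.8 CPM in control and 119, 108, 101, 129 and 118 CPM in knockdown SONs. None of these 3 genes had overlapping groups, beside 2.72% of all genes with knockdown above control throughout. Their pair ratios stayed between 1.32 and 1.75. Bre, a subunit of the BRISC deubiquitinase, had 31.4, 30.6, 32.3, 27.9 and 31.3 CPM in control and 49.0, 47.2, 49.7, 46.6 and 45.9 CPM in knockdown SONs. Dda1, which binds cullin 4 ligases, had 48.1 ± 2.16 (SD, n = 5) and 69.7 ± 4.76 CPM.

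Nacad and Trim72 differed from the rest of that group in level or evenness. Nacad, a relative of the nascent polypeptide-associated complex, had 32.2, 41.1, 49.4, 59.7 and 53.9 CPM in control and 124, 107, 109, 102 and 72.9 CPM in knockdown SONs. Its ratio was 3.84 in animal 1 and 1.35 in animal 5, and its log2 fold change 1.2 (standard error 0.18). Trim72, known for membrane repair in muscle, had only 1.3 ± 0.306 (SD, n = 5) CPM in control and 2.85 ± 0.767 CPM in knockdown SONs, with its lowest ratio at 1.89. Among the partners of Cops2, Gps1 and Cops7a were the other 2 of 10 COP9 genes that could be named, and both were higher (log2 fold changes of 0.53 and 0.45, edgeR adjusted p = 0.00432 and 0.00809, and 0.0894 and 0.0919 with the animal as a block). Bre was the 1 identified gene of the 8 in the BRISC and BRCA1-A list. In the list of CK2 and PP2A subunits (2 of 7 identified, no members), Csnk2a1 and Ppp2ca were higher (0.43 and 0.47, edgeR adjusted p = 0.0024 and 0.00808).

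**Figure D3:**
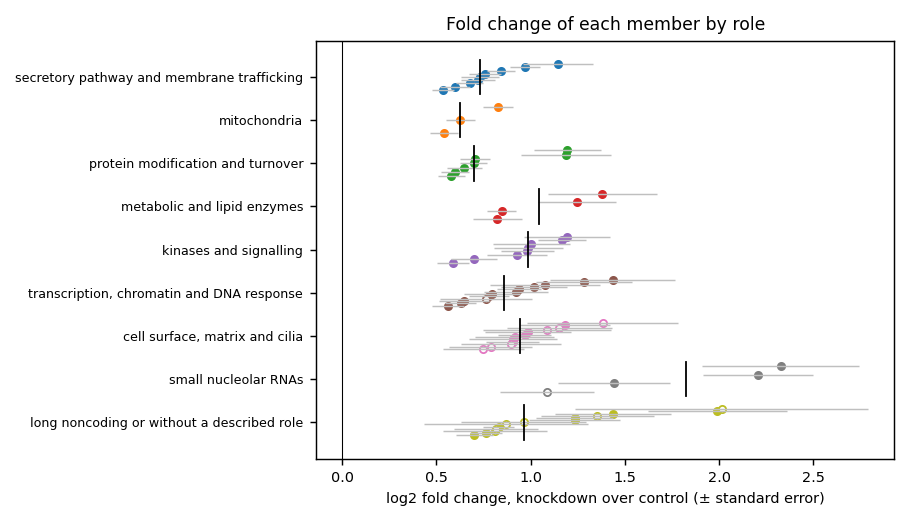
Log2 fold change (knockdown over control, with its standard error) of each member, grouped by role. Filled points are members whose control and knockdown SONs did not overlap in CPM, open points those whose groups overlapped, and black bars mark the median of each role, from 0.63 in mitochondria to 1.82 in small nucleolar RNAs.

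Among the members are 8 kinases or signalling genes, with a median log2 fold change of 0.99. All had groups that did not overlap (2.72% of all genes) and all were past the threshold (3.36% of all genes, higher). Their choice on this contrast favours both. Uhmk1, a kinase that binds RNA, had 24, 33.3, 25.7, 30.8 and 25.3 CPM in control and 62.9, 60.6, 72.3, 53.7 and 48.6 CPM in knockdown SONs. Its lowest ratio, 1.74, was close to that of RGD1305455. Rgs8, which speeds the shut-off of G proteins, had 24.8, 52.5, 31.8, 35.5 and 43.8 CPM in control and 76.2, 78.7, 77.3, 62.5 and 62.2 CPM in knockdown SONs. Pspn, the GDNF-family ligand persephin, had 0.688 ± 0.163 (SD, n = 5) CPM in control and 1.5 ± 0.334 CPM in knockdown SONs. Snrk, which codes for a kinase, Pde1b, a cyclic nucleotide phosphodiesterase, Gpr52, an orphan receptor, and Spred3, an inhibitor of the Ras pathway, had log2 fold changes from 0.59 in Spred3 to 1.00 in Pde1b. Spred3 was among the most even members, with ratios from 1.37 to 1.53. In the RGS list, 3 of 18 genes were identified. Rgs4 was higher (0.80, edgeR adjusted p = 0.0161, and 0.0878 with the animal as a block) and Rgs2 did not pass (-0.37, adjusted p = 0.0747).

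Only 4 members code for enzymes of metabolism or lipid handling. Impdh1, which makes guanine nucleotides, had 29.1 ± 2.18 (SD, n = 5) CPM in control and 50.1 ± 1.99 CPM in knockdown SONs. Plppr1, a lipid phosphatase-related membrane protein of neurites, had 4.81, 7.99, 4.60, 5.78 and 6.73 CPM in control and 15.2, 17.9, 13.6, 10.1 and 11 CPM in knockdown SONs. Naaladl1, a peptidase, had 0.840, 1.87, 1.69, 2.75 and 2.56 CPM in control and 5.75, 4.79, 4.12, 5.79 and 3.51 CPM in knockdown SONs. The low control of animal 1 gave Naaladl1 a ratio of 6.85 there, against 1.37 in animal 5. Pgam2, the muscle form of a glycolytic mutase, had ratios from 1.32 to 2.03.

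The 12 members next described act in transcription, chromatin or the DNA response. Atf5, a stress-responsive relative of Creb3l1 whose translation is raised in the integrated stress response, had 52.1, 46.4, 48.6, 55.1 and 55.7 CPM in control SONs, an even group, and 99.7, 80, 67.3, 257 and 162 CPM in knockdown SONs. The knockdown SONs of animals 4 and 5 stood far above the others, the mean was 133 ± 78.3 (SD, n = 5) CPM, and the log2 fold change was 1.44 (standard error 0.33, edgeR adjusted p = 0.0278, and 0.0998 with the animal as a block). Left out 1 SON at a time, its log2 fold change ran from 1.02 to 1.59 and the call was lost in 7 of 10 fits, with adjusted p from 0.0113 to 0.0756. The lowest ratio was that of animal 3, at 1.38, where the Creb3l1 ratio was also the lowest. Of the ATF and CREB family (4 of 17 genes identified), Atf2 was higher (0.52, adjusted p = 0.00888), Atf7 did not pass (0.38, adjusted p = 0.0696) and Creb3l1 was lower, as given above.

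Ing1, a reader of methylated histone H3, was even, with 20.3, 17.5, 16.6, 14.4 and 19.3 CPM in control and 33.0, 36.6, 30.7, 28.8 and 32.9 CPM in knockdown SONs. Zbtb4, which binds methylated DNA, had 55.0, 76.6, 65.1, 86.2 and 75.8 CPM in control and 129, 119, 115, 114 and 111 CPM in knockdown SONs. Zfhx4, a large homeobox and zinc finger protein, had 7.97, 17.6, 24.6, 21.9 and 28.5 CPM in control and 53.7, 29.4, 45.4, 32.2 and 42.1 CPM in knockdown SONs. Here the order of the SONs differed between the groups: the control SON of animal 1 was the lowest and its knockdown SON the highest, a ratio of 6.75, while the other 4 ratios were between 1.47 and 1.84. Although its groups did not overlap, Zfhx4 did not pass edgeR's test (log2 fold change 1.08, adjusted p = 0.051).

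The histone gene Hist1h4m, which codes for histone H4, had 4.81, 3.56, 3.67, 4.75 and 5.50 CPM in control and 11.8, 10.3, 6.19, 15.6 and 7.75 CPM in knockdown SONs. Histone H4 genes are near-identical copies, and most histone messages lack a poly(A) tail, so its count in poly(A) libraries is uncertain. The zinc finger genes Zbtb16, Zbtb25, Snai2 and Atmin, the homeobox gene Msx1, the nuclear receptor partner Nrip2 and Atxn7l1, a relative of a SAGA subunit, had log2 fold changes from 0.56 in Atxn7l1 to 1.02 in Zbtb16. Zbtb25 had even ratios, from 1.33 to 1.57. For Atmin, 1 of 2 identifiers was a member (ENSRNOG00000051838, 3.29 CPM in control and 5.45 CPM in knockdown SONs on average), and the other lay just outside the rule.

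Another 12 members code for proteins of the cell surface, the matrix or cilia. In 6 of them the groups did not overlap (2.72% of all genes), and 7 were past the threshold (3.36% of all genes, higher). Efemp1, a matrix protein of the fibulin family, had 25.4, 36.6, 28.2, 32.3 and 28.6 CPM in control and 33.1, 77.1, 46.2, 46.6 and 38.6 CPM in knockdown SONs. The groups overlapped, the knockdown SON of animal 2 was the highest, and the gene did not pass (log2 fold change 0.75, edgeR adjusted p = 0.0611). Without that SON its log2 fold change was 0.49 (adjusted p = 0.0883). Mfrp, a membrane protein known from retinal pigment epithelium and choroid plexus, had 4.94, 8.02, 4.48, 7.69 and 8.54 CPM in control and 11.7, 16.2, 11.2, 10.3 and 11.1 CPM in knockdown SONs. Fam155b, an auxiliary subunit of the sodium leak channel, had 7.23, 21.1, 12.0, 14.1 and 14.3 CPM in control and 28.6, 29, 23.3, 25.3 and 23.9 CPM in knockdown SONs. Its knockdown SONs were alike, and the low control of animal 1 gave the ratio of 3.96 there.

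Ldlrad1, a little-studied membrane protein with LDL receptor repeats, had 0.907, 1.75, 1.25, 2.20 and 1.59 CPM in control and 4.09, 2.59, 3.17, 3.96 and 2.82 CPM in knockdown SONs. The platelet receptor gene Gp1ba, the protocadherin Pcdhb3, the ciliary gene Spef1, the prion relative Sprn, the tight junction gene Cldn2, Tmem132e and Sspo, which codes for SCO-spondin, had log2 fold changes between 0.79 and 1.38.

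Some of these genes are known as markers of other tissues of the brain, such as choroid plexus, ependyma and meninges. Of 10 markers of choroid plexus and ependyma, 4 could be named, and 3 of them, Cldn2, Mfrp and Sspo, were members, while the other, Slc4a5, was higher in edgeR's test (log2 fold change 1.03, adjusted p = 0.0256, and 0.115 with the animal as a block). The summed level of these 4 was 7.02 to 11.5 CPM in control SONs and 15.6 to 22.2 CPM in knockdown SONs. Mfrp made up most of it. Of 10 markers of meninges and fibroblasts, 4 could be named. Msx1 and Efemp1 were members, Myoc passed the ratio rule and was left out by name, and Tnmd had 0.273 CPM in control and 0.759 CPM in knockdown SONs on average. Their summed level was 27.9 to 40.9 CPM in control and 39.0 to 85.0 CPM in knockdown SONs, and Efemp1 made up most of it. The members and Myoc in these sums met the ratio rule in every pair. The rise of both sums thus follows largely from selection, and nothing is read from it. None of these 8 markers was at 0 in any SON, and the other 6 of each list could not be named. Of 8 markers of magnocellular neurones, Pdyn, Sim1, Cartpt and Creb3l1 could be named, and their summed level was 431 to 789 CPM in control and 64.6 to 324 CPM in knockdown SONs. Pdyn made up most of the control sums, with means of 482 CPM in control and 116 CPM in knockdown SONs. Creb3l1 is the target of the shRNA. Of the 4, 3 were lower past the threshold in edgeR's test. Cartpt did not pass (log2 fold change -1.17, edgeR adjusted p = 0.102), and its highest pair ratio was 1.04. None of the 6 neuronal, 6 GABA neurone, 7 astrocyte, 8 oligodendrocyte, 7 microglial or 5 endothelial markers could be named, so the tissue could not be checked with them. As with the partners, only genes with the smallest adjusted p in the study's table could be named. The markers named here thus lean towards genes that changed. The part of differing tissue in the members' ratios was not tested.

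The 4 members that are small nucleolar RNAs belong to a class that guides the chemical modification of ribosomal and other RNAs. They had the highest median log2 fold change of the roles, 1.82, at control means of only 0.449 to 1.34 CPM. SNORA48 had 0.907, 0.452, 0.727, 0.291 and 0.722 CPM in control and 4.12, 2.83, 1.41, 4.69 and 1.90 CPM in knockdown SONs, with ratios from 1.94 in animal 3 to 16.1 in animal 4, the widest range of any member. Of the 2 members named SNORD113, the one with identifier ENSRNOG00000059106 had 0.504, 0.603, 0.436, 0.936 and 0.812 CPM in control and 3.45, 3.69, 2.98, 2.79 and 1.54 CPM in knockdown SONs. The other (ENSRNOG00000056115) had ratios from 1.33 to 2.98, and SNORA53 ratios from 1.63 to 5.92. Small nucleolar RNAs lack a poly(A) tail and often lie in introns or in repeated copies, and the libraries were poly(A) selected, so their counts are uncertain. In all, 4 members had fewer than 10 counts in at least 1 SON.

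The last 13 members are long noncoding RNAs, genes without a described role or genes whose name in the table gives no role. ENSRNOG00000016275, which has no symbol in the table used, had 2.25, 0.935, 6.57, 0.743 and 10.4 CPM in control and 16.5, 3.87, 20.9, 8.37 and 33.0 CPM in knockdown SONs. It had the largest lowest ratio of all members, 3.16, and yet the groups overlapped, with control SONs from 0.743 to 10.4 CPM. It did not pass without the animal (log2 fold change 2.01, standard error 0.78, edgeR adjusted p = 0.145), and with the animal as a block its adjusted p was 0.0562. ENSRNOG00000032112, which like ENSRNOG00000032274 the table names after the sequence record of the rat mitochondrial genome without a gene type, had 0.475 ± 0.182 (SD, n = 5) CPM in control and 1.24 ± 0.393 CPM in knockdown SONs, with no ratio under 2.10. It and ENSRNOG00000016275 were the 2 members with a ratio of 2 or more in every pair.

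Dlx6as, an antisense transcript of the Dlx5 and Dlx6 locus of GABA neurones, had 2.25, 6.82, 3.46, 4.52 and 4.21 CPM in control and 13.9, 9.64, 5.89, 9.68 and 12.9 CPM in knockdown SONs. The libraries were stranded, but no strand setting is stated for the counting. Whether reads of its partner were counted with it is therefore not known. Rgag1, a gene derived from a retrotransposon and named Rtl9 in RefSeq, had 0.840, 2.32, 2.97, 1.49 and 3.31 CPM in control and 5.11, 3.27, 4.55, 3.21 and 4.37 CPM in knockdown SONs, with a ratio of 6.08 in animal 1 and 1.32 in animal 5. Fam168b, a little-described membrane protein of neurones, had 91.0, 102, 85.7, 101 and 88.3 CPM in control and 164, 168, 173, 137 and 154 CPM in knockdown SONs, far apart and without overlap. Ttc17, a protein with tetratricopeptide repeats, and Msmp had log2 fold changes of 0.70 and 0.76. The remaining 6 of the group were LOC687707 with the lowest control mean of all members, 0.273 CPM, ENSRNOG00000032274 with 11 ± 2.60 (SD, n = 5) and 24.6 ± 7.58 CPM, LOC681766, Rn60_17_0453.2, ENSRNOG00000012371 and ENSRNOG00000019445. They had log2 fold changes from 0.81 to 1.99.

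The members differed in how even their ratios were across animals. The highest pair ratio was under 1.2 times the lowest in 6 members, between 1.2 and 2 times in 42 and at least 2 times in 24. The last 24 had a median coefficient of variation of 33.6% in control SONs and 25.1% in knockdown SONs, and the other 48 had 10.8% and 9.41%. Over 14758 tested genes of at least 1 CPM in knockdown the medians were 14.8% and 15.9%. The ratio spread and the coefficients come from the same CPM values, so a higher coefficient at a wide spread is largely built in. The lowest ratio was 1.5 or more in 22 members and under 1.5 in the other 50.

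**Figure D4:**
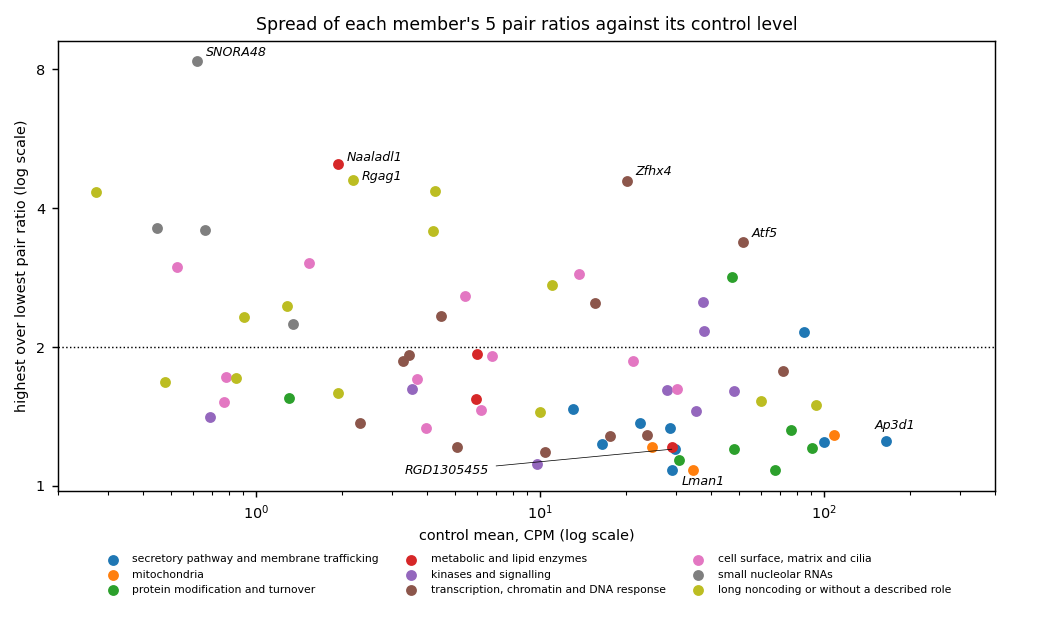
Each member's highest pair ratio over its lowest (log scale) against its mean CPM in control SONs (log scale), coloured by role. The dotted line marks a spread of 2. Secretory genes such as Lman1, RGD1305455 and Ap3d1 lie low, SNORA48 lies highest at a low level, and Zfhx4 and Atf5 have wide ratios at levels of 20.1 and 51.6 CPM.

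The 5 animals did not contribute alike. The median ratio of the members was 2.05 in animal 1, 1.63 in animal 2, 1.74 in animal 3, 1.74 in animal 4 and 1.5 in animal 5, while the median over all genes was between 0.935 and 0.985. Animal 1 had the highest ratio in 36 of the 72 members (50.0%), and it had the highest ratio in 28.7% of 14755 genes with counts in every SON. Animal 5 had the highest ratio in 3 members (4.17%), against 28% of genes, and the lowest in 22. Animals 1 and 5 thus stood at opposite ends. Among the controls, the SON of animal 1 was the lowest in 30 of the 72 members, a share near that of all genes (37.7%). That of animal 3 was the lowest in 20 of the 72 (all genes, 10.5%). Among the knockdown SONs, that of animal 1 was the highest in 25 members (all genes, 9.79%). A high ratio in animal 1 came with a low control SON in some members and a high knockdown SON in others, and choosing on the ratio favours both. The control SONs of animals 1 and 3 were the lowest pair in 24 members (33.3%), among them Dnajc27, Rgs8, Pde1b, Plppr1, Sprn and Fam155b, and in 25.6% of all genes. In those 24 members the median ratio was 2.43 in animal 1, 1.55 in animal 2, 1.85 in animal 3, 1.61 in animal 4 and 1.48 in animal 5. The 24 were picked by the controls that these ratios divide by. Higher ratios in animals 1 and 3 are thus built in, and nothing is read from them. In 6 members the control SON of animal 1 held at most 0.5 of the median of the other controls, namely Zfhx4, Cldn2, Naaladl1, Rgag1, ENSRNOG00000012371 and ENSRNOG00000019445. Summed over the 72 members, control SONs held 1621 to 1912 CPM and knockdown SONs 2869 to 3192 CPM.

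The Creb3l1 ratio of the knockdown was 0.343 in animal 1, 0.496 in animal 2, 0.275 in animal 3, 0.443 in animal 4 and 0.582 in animal 5, so that from the lowest ratio upwards the order was animals 3, 1, 4, 2 and 5. From the highest member median downwards the order was animals 1, 3, 4, 2 and 5, with animals 3 and 4 alike to 3 digits. The orders differed in the place of animals 1 and 3, and animal 5 had both the highest Creb3l1 ratio and the lowest member median. The member medians are made of the ratios that the rule chose on, so nothing is read from the 2 orders. With 5 animals no correlation is given.

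**Figure D5:**
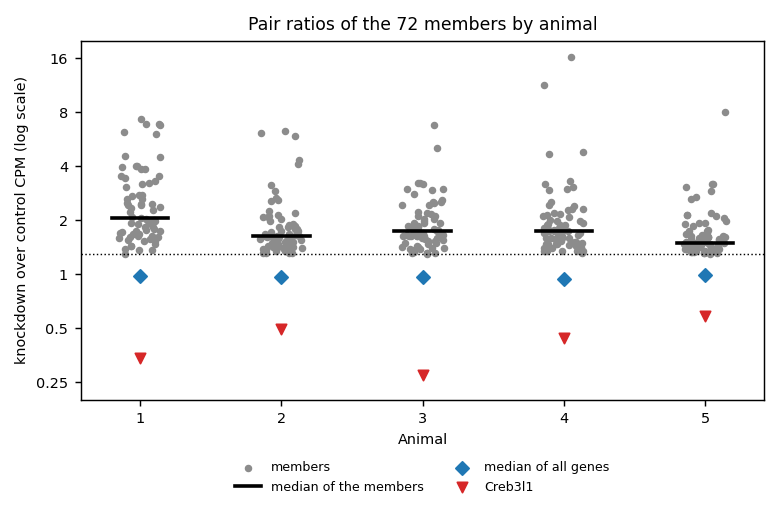
Pair ratios (knockdown over control CPM, log scale) of the 72 members in each animal as grey points with their median as a bar, beside the median ratio of all genes (blue diamonds) and the ratio of Creb3l1 (red triangles). The dotted line is the ratio of 1.3 used to choose the members. The member median is 2.05 in animal 1 and 1.5 in animal 5, and the all-gene medians stay just under 1.

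The threshold left genes on both sides that hardly differed. Just inside were Atxn7l1 with a lowest ratio of 1.3004, Efemp1 with 1.3027 and Mfrp with 1.3032. Just outside were the second Atmin identifier (ENSRNOG00000011422, 22.8 CPM in control and 38.6 CPM in knockdown SONs), whose lowest ratio rounds to the same 1.3, ENSRNOG00000010210 with 1.2964 and ENSRNOG00000000008 with 1.2928. The 5 genes left out by name had lowest ratios between 1.42 in Slc27a4 and 2.29 in Myoc, and Scn3b, a sodium channel subunit, had the highest level among them, 83.9 CPM in control and 209 CPM in knockdown SONs.

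In the RefSeq order of coding genes, 58 members could be placed. Msmp and Rgp1 were direct neighbours. Msmp had 9.14, 9.17, 10.2, 11 and 10.5 CPM in control and 17.8, 16.8, 15.1, 14.8 and 16.5 CPM in knockdown SONs, and Rgp1 had 12.1, 12.6, 12.2, 14.3 and 14.2 CPM in control and 24, 19.8, 19.9, 19.3 and 20 CPM in knockdown SONs. Both had their highest ratio in animal 1 and their lowest in animal 4, and reads shared between the neighbours were not tested. Fam168b and Lman2l were 7 coding genes apart, with Coa5 a further 14 from Lman2l. Nacad and Pgam2 were 19 coding genes apart, and Cldn2 and Rgag1 24. How often 58 genes fall at such distances was not worked out, so no cluster is read from them.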

How the data were processed

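Stranded poly(A) RNA libraries of 10 SONs (5 animals, left and right) were used. The authors aligned reads to rat Rn6 with STAR, counted them with featureCounts and deposited raw counts per gene, not normalised. Settings for strand and for reads mapping to several places are not given in the sources used here. The study tested with DESeq2 1.28.1, and its model formula is not given in the sources used here.

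CPM is the count per 1000000 counts of the column total. Tests used edgeR 4.0.16 in R 4.3.3, with filterByExpr at a minimum count of 10, TMM factors between 0.956 and 1.07 (16286 genes) and the quasi-likelihood test with Benjamini-Hochberg adjustment. The script was tested on simulated data. Alternatives were DESeq2 1.42.0 on all genes with counts, RLE factors, no filter, the animal as a block, other limits in the rule, and leaving out each SON or pair. Samples were grouped by their labels. The left and right SON with the same number come from 1 animal, by the design text. Their deviations from the group means correlated at -0.117, 0.45, -0.44, -0.324 and -0.549 over 16286 genes.

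Symbols came from the study's knockdown table, of which 1999 genes were used. Its fold changes and p-values were not used. Members, role groups and lists were chosen with earlier results of these data known, and roles were assigned by hand. Of the 19 lists none reached 80% of genes named, so no test of a list was run. Named with values were RGD1305455, the 10 members each with the largest lowest ratio, the highest mean CPM and the widest ratios (the first and last among those with 10 counts in every SON), small RNA and histone genes, members of the complex and marker lists, and the 3 genes on either side of the ratio limit. Others are named by role, chosen after their values were seen. RefSeq names matched 58 members. The values of 2 members are not reported here, and they stand only in counts, medians and unlabelled points. Promoters and their positions came from the RefSeq promoter table (GRCr8), and no other genome sequence was used. Groups of 5 were checked for a SON set apart with Dixon's criterion (0.71). At 5 SONs a group, p-values rest on few animals, and counting error is given by the depth of at least 29020948 counts per SON.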

Additional observations from a re-analysis of the deposited data

Results flagged for a closer look

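Mfrp was set apart in 1 of 84 groups of 5 SONs compared among the named members. Its knockdown SON of animal 2 had 16.2 CPM, where the other knockdown SONs had 10.3 to 11.7 CPM, a gap of 0.759 of the whole range. Chance sets apart about 1 in 20 such groups.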

How the results depend on the processing

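The number of members, 72, became 149 at a ratio of 1.2, 22 at a ratio of 1.5, 98 with TMM factors in the CPM, 91 and 64 at a knockdown mean of 0.5 and 2 CPM, and 87 to 131 with 1 pair left out, the highest without animal 4 (131) and animal 5 (120). All 72 were among the 98. Pairs with 0 control counts decided no member. Genes past the threshold, 1280, were 2188 with DESeq2, 9 with the animal as a block, 1321 with RLE factors, 950 without a filter and 519 to 1699 with 1 SON left out (519 without the knockdown SON of animal 1, 558 without the control SON of animal 3, 613 and 614 without the control SON of animal 5 and the knockdown SON of animal 2, 817 and 834 without the control SON of animal 2 and the knockdown SON of animal 4). Members past the threshold, 60, were 70 with DESeq2, 1 with the block and 47 to 62 with 1 SON left out, and 46 were past it in all 10 of those fits. With the block all 72 members had an unadjusted p under 0.05. Members had to be raised in every pair, so small p-values in a fit by animal follow from the rule, and nothing is read from them. The log2 fold change of Creb3l1 was -1.21 with the block (adjusted p = 0.0586) and -1.33 to -1.02 with 1 SON left out. Of 42 named members, 33 lost and 9 kept their side of the threshold with the block, and 7 gained a call with DESeq2. All 72 members stayed higher in every fit, which the rule that chose them makes likely. With 1 SON left out, the call was lost most often in Atf5 (7 of 10 fits), Fam155b (6) and SNORD113 (ENSRNOG00000056115, 6). The cause of these differences was not tested. The block leaves fewer residual degrees of freedom.

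Depth limits the members under 1 CPM, where a few counts set the ratio, and the named part of the table limits what can be said of partners and markers.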
